A study of Homo sapiens with 36 samples.

Results

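The 32 genes described here encode enzymes of cholesterol and fatty acid synthesis, the proteins that control their transcription, and a pair of sterol carriers. They were followed in human mammary epithelial cells carrying short hairpin RNAs against genes of the DNA damage response. Members were chosen by name: 18 enzymes of the sterol pathway, 8 enzymes of fatty acid synthesis and its precursors, 4 regulators and 2 sterol carriers. A member counted as measured when some group had its probe above background on each of its 3 arrays, at a detection p under 0.01. This held for 30 members (17 sterol enzymes, 7 fatty acid enzymes, 4 regulators and 2 carriers) among 11048 genes measured in all. The probe for FADS2, a desaturase of polyunsaturated fatty acids, was above background on 3 of 36 arrays and in no whole group. FDFT1, squalene synthase, was not analysed here.

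RNA was measured on 36 Illumina BeadChip arrays, 3 labelled biological replicates in each of 12 groups, all labelled MCF-10A, a mammary epithelial line that grows in culture without being transformed. Pairs of lines carried hairpins against ATM (shATM-1 and shATM-3), ATR (shATR-3 and shATR-4), CHEK1 (shCHK1-3 and shCHK1-4), CHEK2 (shCHK2-1 and shCHK2-2) and TP53BP1 (sh53BP1-1 and sh53BP1-2). The first 4 targets are kinases of the DNA damage response, and their 8 lines are called the kinase lines below. TP53BP1 encodes the adaptor protein 53BP1. A line with a control hairpin (shControl) and mock wild type cells without a hairpin served as controls. All lines with a hairpin carried it stably after lentiviral delivery, and 200000 cells were plated on 10 cm dishes and harvested after 48 h. The labels do not say whether a line's 3 replicates came from separate transductions, so p-values measure only the spread between these samples. Each target was set against the same shControl arrays, so the comparisons are not independent of each other. In lysed cultures, fewer cells of a type and less RNA per cell cannot be told apart.

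Cells make cholesterol from acetyl-CoA through mevalonate, farnesyl diphosphate, squalene and lanosterol, and fatty acids from the same precursor through malonyl-CoA. SREBP transcription factors (SREBF1 and SREBF2) switch on both routes: when sterols are low, SCAP escorts them from the endoplasmic reticulum to the Golgi, where they are cut free, and when sterols are high, INSIG1 retains SCAP. INSIG1 is itself an SREBP target gene, and in the mouse mammary gland SREBF1 is known for its part in milk fat synthesis.

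The labels were checked first. ATM averaged 8.11 ± 0.0749 and 7.97 ± 0.318 in the shATM-1 and shATM-3 lines and 9.01 ± 0.130 in shControl (log2 signal, SD, n = 3 each). It averaged between 8.61 and 9.07 in the other kinase lines, 8.97 and 8.93 in the sh53BP1 lines and 8.64 ± 0.0853 in wild type. TP53BP1 averaged 5.47 ± 0.241 and 5.78 ± 0.0803 in the sh53BP1 lines, 8.12 ± 0.212 in shControl and 7.74 ± 0.187 in wild type. CHEK1 averaged 8.49 ± 0.129 and 8.47 ± 0.0526 in its lines, between 9.55 and 10.09 in the other kinase lines, 9.78 and 9.70 in the sh53BP1 lines, 8.74 ± 0.153 in shControl and 9.48 ± 0.150 in wild type. Its level in shControl was thus nearer to that of the shCHK1 lines than to that of the other groups. CHEK2 averaged 5.96 ± 0.414 and 6.86 ± 0.193 in its lines and 6.96 ± 0.511 in shControl, so the CHEK2 level of shCHK2-2 lay within the spread of shControl. It averaged between 7.09 and 7.98 in the other kinase lines, 8.10 and 8.02 in the sh53BP1 lines and 7.13 ± 0.119 in wild type. The ATR probe was above background on no array and checks nothing. MTAP, CDKN2A and CDKN2B lie in a stretch of chromosome arm 9p that MCF-10A is known to have lost: each was above background on all 24 arrays of the kinase lines and on 0 of the other 12. The luminal keratin KRT19 was detected on 0 of 24 kinase arrays and on all arrays of the other groups. The summed log2 signal of 5 luminal markers lay between 40.2 and 43.9 in the kinase lines, between 52.1 and 53.1 in the sh53BP1 lines, between 49.5 and 50.3 in shControl and between 53.0 and 53.6 in wild type. Among them MUC1 averaged between 5.32 and 6.83 in the kinase lines, 12.86 and 12.92 in the sh53BP1 lines, 12.30 in shControl and 12.86 in wild type, while KRT18 was higher in the kinase lines (7.64 to 8.17) than in shControl (6.72) and wild type (7.48). EPCAM averaged between 12.57 and 13.20 in all 12 groups. An effect of the kinase hairpins and any other difference that the 8 lines share against the remaining groups cannot be told apart here. The part of these marker differences in the results below was not tested. Of 4 adipocyte markers, ADIPOQ and PLIN1 were above background on no array and CIDEC on at most 1 array of a group, while LEP was above background on all arrays (means between 10.16 and 11.31). Of 3 leukocyte markers, PTPRC and CD3E were above background on no array and CD68, a lysosomal protein gene, on all (10.40 to 10.91). Of 5 mesenchymal markers, COL3A1 and PDGFRB were above background on no array and VIM on all.

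The members varied across the 12 groups about as much as other genes. The range of a member's group means had a median of 0.949 on the log2 scale, against 1.03 over all 11048 genes, and the median SD within a group was 0.104, against 0.130. TM7SF2 had the widest range (3.23, at the 95th percentile of all genes), followed by MVD (1.81), INSIG1 (1.80), STARD4 (1.65) and SREBF1 (1.64). SCAP had the narrowest (0.452), then ACLY (0.506), IDI1 (0.534), HSD17B7 (0.556), LSS (0.649), DHCR7 (0.675) and ELOVL6 (0.698). HSD17B7 has a near-identical copy, HSD17B7P2, so its signal is uncertain. Probes of 27 members were above background on all 36 arrays, and those of TM7SF2, STARD4 and SREBF2 on 29, 26 and 31.

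**Figure D1:**
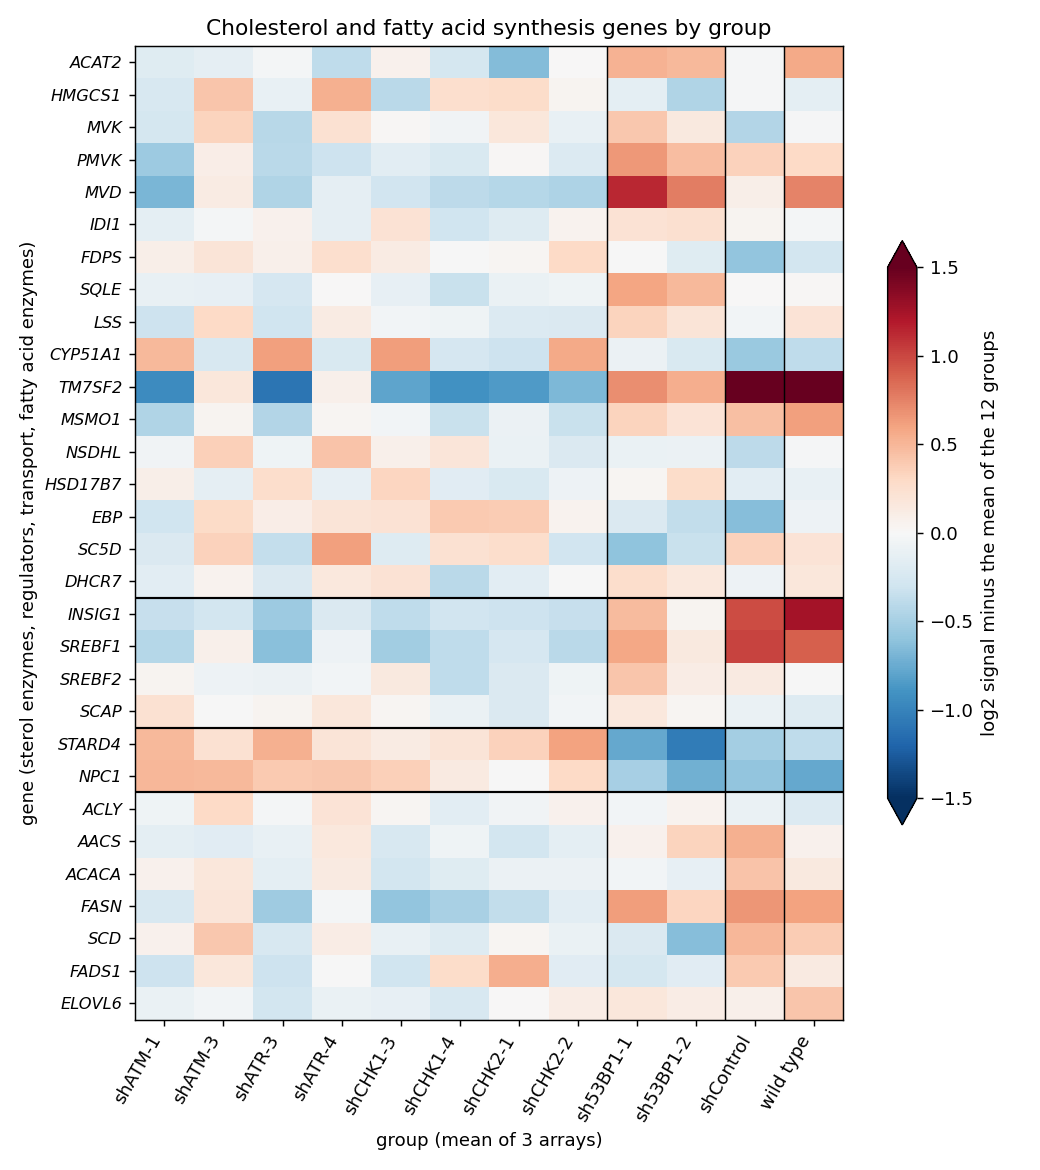
Log2 signal of the 30 measured members in the 12 groups (mean of 3 arrays each), shown as the difference from the mean of the 12 group means and ended at 1.5 in either direction. TM7SF2, INSIG1 and SREBF1 are low across the 8 kinase lines, NPC1 and STARD4 are high there, and MVD is highest in the sh53BP1 lines.

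The promoters below belong to the 4 members with the widest ranges, whose values are given in full further on, and to SREBF2, the factor that controls the sterol branch. Each is the 300 bases from 250 before to 50 after the RefSeq gene start, on assembly GRCh38.p14, read 5′ to 3′ along the gene. They were chosen after their values were seen. Capitals mark CCAAT, the box bound by NF-Y, which acts with SREBPs at many of their target promoters, on either strand (ATTGG on the printed strand), and the SRE-type motif TCACNCCAC.
TM7SF2 (chr11:65111622-65111921, plus strand): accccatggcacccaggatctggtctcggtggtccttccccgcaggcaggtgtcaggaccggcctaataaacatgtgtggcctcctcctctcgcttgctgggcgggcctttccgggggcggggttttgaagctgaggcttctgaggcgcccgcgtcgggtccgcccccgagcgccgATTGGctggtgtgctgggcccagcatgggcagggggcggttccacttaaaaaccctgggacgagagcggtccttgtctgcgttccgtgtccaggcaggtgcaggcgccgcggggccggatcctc
MVD (chr16:88663042-88663341, minus strand): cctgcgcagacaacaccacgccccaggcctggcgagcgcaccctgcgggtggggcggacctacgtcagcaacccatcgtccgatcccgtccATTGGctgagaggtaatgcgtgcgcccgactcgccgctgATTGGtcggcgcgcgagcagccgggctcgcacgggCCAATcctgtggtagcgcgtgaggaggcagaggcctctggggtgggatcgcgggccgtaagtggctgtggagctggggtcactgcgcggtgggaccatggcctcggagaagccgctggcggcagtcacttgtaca
INSIG1 (chr7:155297628-155297927, plus strand): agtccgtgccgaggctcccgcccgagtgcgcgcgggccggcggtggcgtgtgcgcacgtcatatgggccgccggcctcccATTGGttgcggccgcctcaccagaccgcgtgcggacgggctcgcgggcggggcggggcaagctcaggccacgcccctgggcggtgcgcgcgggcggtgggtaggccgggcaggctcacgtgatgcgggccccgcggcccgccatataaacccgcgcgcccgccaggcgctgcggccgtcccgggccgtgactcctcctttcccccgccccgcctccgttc
STARD4 (chr5:111512486-111512785, minus strand): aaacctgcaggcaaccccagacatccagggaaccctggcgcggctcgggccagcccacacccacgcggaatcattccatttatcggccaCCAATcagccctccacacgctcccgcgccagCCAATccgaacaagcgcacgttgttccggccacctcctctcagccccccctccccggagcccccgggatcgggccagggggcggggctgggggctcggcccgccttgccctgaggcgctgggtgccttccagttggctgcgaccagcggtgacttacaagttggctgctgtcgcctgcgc
SREBF2 (chr22:41832855-41833154, plus strand): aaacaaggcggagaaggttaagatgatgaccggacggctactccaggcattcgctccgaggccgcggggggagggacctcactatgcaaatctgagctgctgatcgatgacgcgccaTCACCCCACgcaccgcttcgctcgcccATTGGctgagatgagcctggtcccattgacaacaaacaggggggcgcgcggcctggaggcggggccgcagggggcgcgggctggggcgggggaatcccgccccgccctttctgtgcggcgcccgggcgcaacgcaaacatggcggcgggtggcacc
The SRE-type motif, searched on both strands, was found in 1 of the 37 windows listed for 28 of the members, that of SREBF2, where it starts 133 bases before the gene start. Of all 35116 windows 396 (1.13%) held it. CCAAT was found in 24 of the 37 windows of members and in 12155 (34.6%) of all windows. These matches describe the letters in this window only.

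A member was called for a target when both of its lines differed from shControl with an adjusted p under 0.05 (limma, Benjamini-Hochberg over all 11048 genes) and the same sign. For CHEK1, 18 of 30 members were called, 7 higher and 11 lower, where 51.1% of all genes were called (25.2% higher and 25.9% lower). For ATR, 15 were called, 6 higher and 9 lower, where 47.7% of all genes were (23.4% higher and 24.3% lower). The CHEK2 lines also had 15, 6 higher and 9 lower, against 48.1% of all genes (23% and 25.1%). The ATM lines had 13, 6 higher and 7 lower, against 45.2% of all genes (22.4% and 22.9%). The TP53BP1 lines had 15, 8 higher and 7 lower, against 49.1% of all genes (24% and 25%). These counts are near what the shares of all genes give. Across all 4 kinase targets 11 members were called with the same sign, where 36% of all genes were (16.9% higher and 19.1% lower): FDPS, CYP51A1, EBP, STARD4 and NPC1 higher, and TM7SF2, MSMO1, INSIG1, SREBF1, AACS and FASN lower. Of these, FDPS and CYP51A1 were also higher, and TM7SF2, INSIG1 and SREBF1 also lower, in both sh53BP1 lines, which makes 5 members called for all 5 targets (19.7% of all genes). TM7SF2 and INSIG1 kept these calls whichever array was left out. The TP53BP1 call was lost for SREBF1 without sh53BP1-1 replicate 1 (adjusted p = 0.134, limma) or shControl replicate 2 (0.0878), and for FDPS without sh53BP1-2 replicate 3 (0.0511) or shControl replicate 2 (0.0891). The median log2 difference of the 30 members was -0.14 for ATM, -0.16 for ATR, -0.16 for CHEK1, -0.14 for CHEK2 and 0.12 for TP53BP1, where the medians of all genes lay between -0.000511 and 0.04. The pathway did not move one way: sterol enzymes were called in both directions for each target, while all fatty acid enzymes called were lower.

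Among the regulators, INSIG1, which holds the SREBP escort in the endoplasmic reticulum, and SREBF1, the factor that favours fatty acid genes, were lower for all 5 targets. INSIG1 lay between 10.06 and 10.70 on the 24 arrays of the kinase lines (median 10.43, log2 signal). It was 11.19, 11.38 and 11.16 in sh53BP1-1 and 10.60, 10.94 and 10.88 in sh53BP1-2, against 11.95, 11.72 and 11.59 in shControl and 12.04, 12.03 and 11.98 in wild type. All 24 kinase arrays and all 6 sh53BP1 arrays thus lay below every control array. Against shControl the change was between -1.53 in shATR-3 and -1.20 in shATR-4 (SE 0.118, highest adjusted p 4.43e-10, limma), which left 34.7% and 43.5% of the shControl signal. In the sh53BP1 lines it was -0.51 (adjusted p = 0.000502) and -0.94 (adjusted p = 7.52e-08).

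SREBF1 lay between 8.20 and 9.05 on the kinase arrays (median 8.56). It was 9.07, 9.58 and 9.77 in sh53BP1-1 and 8.98, 9.11 and 9.02 in sh53BP1-2, against 9.91, 10.19 and 9.60 in shControl and 9.84, 9.76 and 9.75 in wild type. Every kinase array lay below every control array, while the arrays of sh53BP1-1 overlapped those of both controls. The change against shControl was between -1.64 (shATR-3, adjusted p = 4.81e-12, limma) and -0.94 (shATM-3, adjusted p = 5.42e-07) in the kinase lines, and -0.42 (adjusted p = 0.00714) and -0.86 (adjusted p = 2.52e-06) in sh53BP1-1 and sh53BP1-2 (SE 0.133). The second INSIG1 probe averaged between 6.91 and 7.54 in the kinase lines, and 7.64 and 7.31 in the sh53BP1 lines, against 8.61 in shControl and 9.15 in wild type. By the second SREBF1 probe the kinase lines changed by between -1.46 and -0.57 and sh53BP1-2 by -0.68, while sh53BP1-1 did not pass (-0.28, adjusted p = 0.227, limma). SREBF2, the sister factor that favours cholesterol genes, was dim and not called in any line, with means between 5.22 and 5.75 in the kinase lines, 6.02 and 5.72 in the sh53BP1 lines, 5.74 in shControl and 5.59 in wild type. SCAP had means between 9.75 and 10.20 in the kinase lines, 10.13 and 10.00 in the sh53BP1 lines and 9.87 in shControl. It passed only in shATM-1 (0.33, adjusted p = 0.0377, limma), so neither gene was called for a target.

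Both sterol carriers were higher for all 4 kinase targets and were not called for TP53BP1. NPC1, which moves cholesterol out of lysosomes, lay between 9.33 and 10.15 on the kinase arrays (median 9.73). It was 8.61, 8.97 and 9.10 in sh53BP1-1 and 8.57, 8.71 and 8.74 in sh53BP1-2, against 8.94, 8.89 and 8.57 in shControl and 8.59, 8.62 and 8.65 in wild type. All 24 kinase arrays lay above every other array, while the sh53BP1 and control arrays overlapped. The change against shControl was between 0.58 in shCHK2-1 and 1.09 in shATM-1 (SE 0.130, highest adjusted p 0.000279, limma), and 0.09 (adjusted p = 0.565) and -0.13 (adjusted p = 0.417) in the sh53BP1 lines.

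STARD4, a soluble carrier that shuttles cholesterol between membranes, is a dim probe here. It lay between 5.34 and 6.47 on the kinase arrays (median 5.96) and was above background on all of these except 1 array of shCHK1-3. Against this, shControl gave 4.76, 5.45 and 5.13 with 1 of 3 arrays above background, and wild type 5.36, 5.29 and 5.09 with 2 of 3. On 23 of 24 kinase arrays STARD4 was above every shControl array, and the change was between 0.63 in shCHK1-3 and 1.12 in shCHK2-2 (SE 0.171, highest adjusted p 0.00185, limma). These sizes rest on a level that shControl mostly had below the detection threshold: with the deposited log2 values the mean change was 0.22 for CHEK1 in place of 0.67, and 0.34 for CHEK2 in place of 0.99. No sh53BP1 array was above background for STARD4, so only a bound can be given there: the kinase lines were at least 1.40-fold higher than the sh53BP1 lines (adjusted p = 7.47e-13), with measured means of 5.97 and 4.72.

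**Figure D2:**
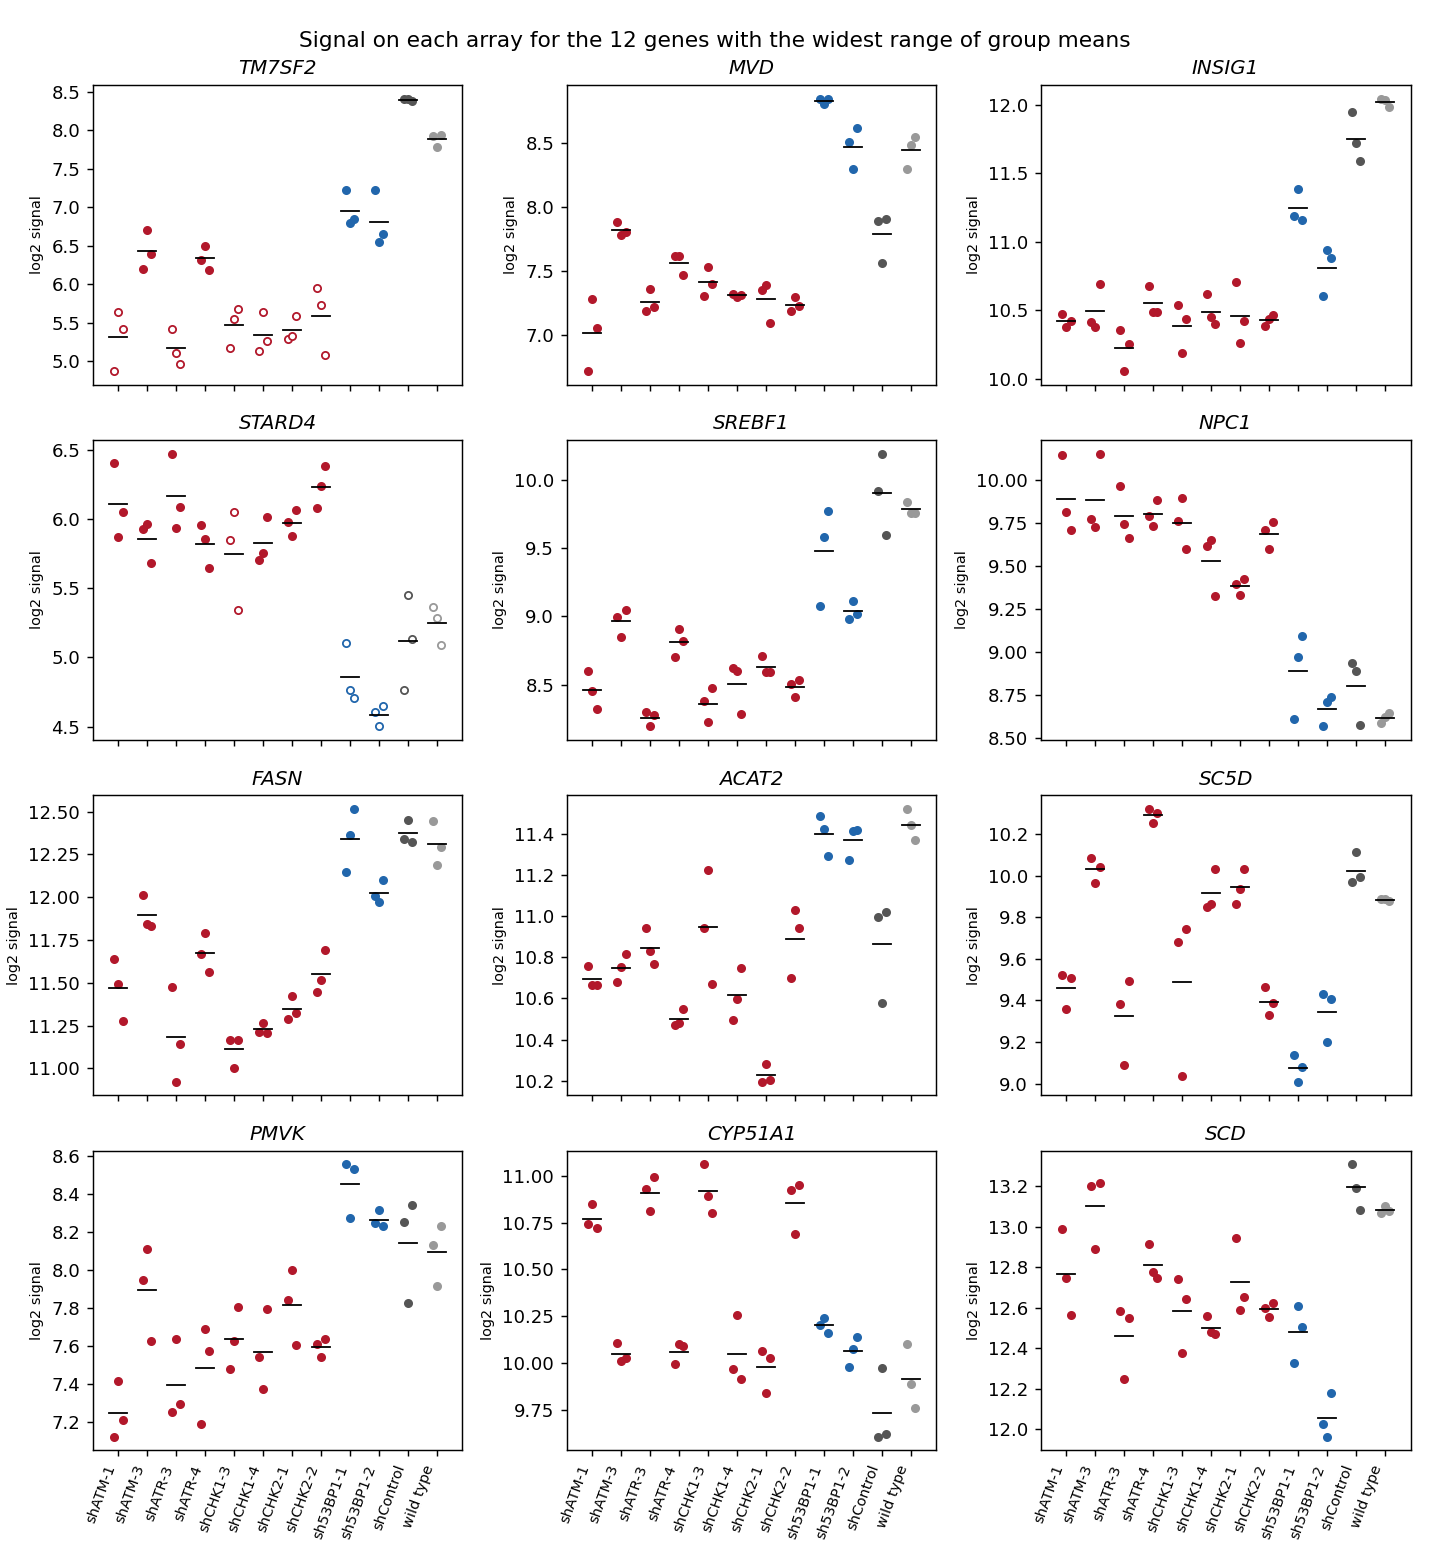
Log2 signal of the members with the widest ranges on each of the 36 arrays, with kinase lines in red, sh53BP1 lines in blue, shControl in dark grey and wild type in light grey. Points are arrays, bars are group means and open circles mark groups not above background on all 3 arrays. INSIG1 and FASN lie below both controls on all 24 kinase arrays, NPC1 lies above them, and CYP51A1 splits the 2 hairpins of each kinase target.

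Sterol pathway enzymes moved in both directions. Of 17 measured, 6 were called for ATM (4 higher, 2 lower), 7 for ATR (4 higher, 3 lower), 9 for CHEK1 (5 higher, 4 lower), 7 for CHEK2 (4 higher, 3 lower) and 10 for TP53BP1 (8 higher, 2 lower). Of all genes 45.2%, 47.7%, 51.1%, 48.1% and 49.1% were called for these targets in the same order, so the counts in either direction are near the shares of all genes. For TP53BP1, 8 of the 17 were called higher, where 24% of all genes were. The largest fitted change among the members was in TM7SF2, a sterol reductase that acts after lanosterol demethylation. It lay between 4.88 and 6.71 on the kinase arrays (median 5.57), and was above background on all 3 arrays in shATM-3 and shATR-4, but on only 1 or 2 of 3 in the other kinase lines. It was 7.22, 6.80 and 6.84 in sh53BP1-1 and 7.22, 6.55 and 6.66 in sh53BP1-2, against 8.41, 8.41 and 8.37 in shControl and 7.93, 7.78 and 7.94 in wild type. Every hairpin array lay below every control array. The change against shControl was -1.96 in shATM-3 and -2.06 in shATR-4 (25.6% and 24% of the shControl signal), fitted between -3.23 and -2.81 in the other kinase lines, and -1.44 and -1.59 in the sh53BP1 lines (SE 0.205, highest adjusted p 5.55e-07, limma). Near background these sizes depend on the scale: with the deposited log2 values the mean change was -1.62 for CHEK1 in place of -2.99 and -1.44 for ATM in place of -2.52.

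MSMO1, an oxidase that removes methyl groups from lanosterol products, was the other sterol enzyme lower for all 4 kinase targets. Its kinase arrays lay between 11.13 and 11.78, below every shControl array (11.95 to 12.25), with changes between -0.90 in shATM-1 and -0.40 in shATM-3 (SE 0.102, highest adjusted p 0.00117, limma). FDPS, farnesyl diphosphate synthase, lay above every shControl array (9.55 to 9.96) on all 24 kinase arrays (10.01 to 10.81) and all 6 sh53BP1 arrays (10.07 to 10.42). Its change was between 0.58 in shCHK1-4 and 0.89 in shCHK2-2, and 0.58 and 0.41 in the sh53BP1 lines (highest adjusted p 0.00939, limma). The hairpin arrays of FDPS overlapped those of wild type (10.03 to 10.15).

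EBP, a sterol isomerase, lay between 10.11 and 11.06 on the kinase arrays, above every shControl array (9.66 to 10.10), but wild type (10.26 to 10.61) lay inside that range. Its change was between 0.34 in shATM-1 (adjusted p = 0.0194, limma) and 1.03 in shCHK1-4. NSDHL, a dehydrogenase of the demethylation steps, was higher for ATM, ATR, CHEK1 and TP53BP1. It lay between 9.83 and 10.59 on the kinase arrays and between 9.96 and 10.16 on the sh53BP1 arrays, against 9.67 to 9.80 in shControl and 10.00 to 10.17 in wild type. MVK, mevalonate kinase, was higher for CHEK1, CHEK2 and TP53BP1. Its 6 sh53BP1 arrays (7.07 to 7.58) lay above every shControl array (6.48 to 6.76), with changes of 0.85 (adjusted p = 5.26e-08, limma) and 0.59 (adjusted p = 2.3e-05), while wild type (6.99 to 7.15) overlapped them. With the deposited log2 values the mean change of MVK was 0.41 for TP53BP1 in place of 0.72. The ATM call of EBP was lost without shATM-1 replicate 3 (adjusted p = 0.052) or shControl replicate 1 or 2 (0.0714 and 0.116), and the CHEK2 call of MVK without shControl replicate 2 (0.0638). For EBP, NSDHL, MVK, FDPS and CYP51A1, shControl had the lowest mean of the 12 groups. It had the highest mean for TM7SF2, SREBF1, FASN, SCD, AACS and ACACA.

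CYP51A1, lanosterol demethylase, was higher for all 5 targets but to unequal degrees. It averaged 10.77 in shATM-1, 10.91 in shATR-3, 10.92 in shCHK1-3 and 10.86 in shCHK2-2, but 10.05 in shATM-3, 10.06 in shATR-4, 10.05 in shCHK1-4 and 9.98 in shCHK2-1, and 10.20 and 10.06 in the sh53BP1 lines. In shControl it was 9.60, 9.97 and 9.62, and in wild type 10.10, 9.89 and 9.76. The first 4 lines had changes of 1.04, 1.18, 1.19 and 1.12 against shControl (SE 0.106), with no overlap of arrays. The other kinase lines had changes between 0.24 (shCHK2-1, adjusted p = 0.047, limma) and 0.33, with arrays that overlapped those of wild type. Without shControl replicate 1 or replicate 3, CYP51A1 lost its call for each of the 5 targets. For ATM the adjusted p (limma) was then 0.0713 and 0.0637, with mean changes of 0.61 and 0.62. The CHEK2 call was lost on leaving out 19 of the 36 arrays in turn, and the CHEK1 call also without shCHK1-4 replicate 2 (adjusted p = 0.114).

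MVD, mevalonate diphosphate decarboxylase, was lower in 6 of the 8 kinase lines and higher in both sh53BP1 lines. It lay between 6.72 and 7.89 on the kinase arrays (median 7.32). It was 8.85, 8.80 and 8.84 in sh53BP1-1 and 8.50, 8.29 and 8.61 in sh53BP1-2, against 7.89, 7.57 and 7.91 in shControl and 8.30, 8.49 and 8.54 in wild type. Against shControl, MVD was lower in both CHEK1 lines (-0.37 and -0.47), both CHEK2 lines (-0.51 and -0.55), shATM-1 (-0.77) and shATR-3 (-0.53), at 0.04 in shATM-3 and -0.22 in shATR-4, and higher in the sh53BP1 lines (1.04 and 0.68, SE 0.113, highest adjusted p 6.85e-06, limma). Against wild type it was between -1.42 and -0.62 in the kinase lines and 0.39 and 0.03 in the sh53BP1 lines, the last with an adjusted p of 0.862. With the deposited log2 values the mean MVD change was -0.28 for CHEK1 in place of -0.42 and -0.34 for CHEK2 in place of -0.53. PMVK, the kinase that acts just before it, averaged between 7.25 and 7.90 in the kinase lines, 8.46 and 8.27 in the sh53BP1 lines, 8.14 in shControl and 8.10 in wild type, and was called lower for ATR and CHEK1. ACAT2, the cytosolic thiolase that starts the pathway, lay between 10.20 and 11.22 on the kinase arrays. It was 11.48, 11.42 and 11.29 in sh53BP1-1 and 11.27, 11.42 and 11.42 in sh53BP1-2, against 10.99, 10.58 and 11.02 in shControl and 11.52, 11.44 and 11.37 in wild type. ACAT2 was higher for TP53BP1 against shControl (0.54 and 0.50), but its sh53BP1 arrays overlapped those of wild type.

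For TP53BP1, the 8 sterol enzymes called higher were ACAT2, MVK, MVD, FDPS, SQLE, LSS, CYP51A1 and NSDHL. SQLE, squalene epoxidase, lay between 12.40 and 12.84 on the 6 sh53BP1 arrays, above both shControl (12.01 to 12.03) and wild type (11.97 to 12.14), with changes of 0.58 and 0.47 (adjusted p = 0.000175 and 0.00169, limma). LSS, lanosterol synthase, was higher by 0.37 and 0.23, and lost its call without sh53BP1-2 replicate 3 (adjusted p = 0.096, limma) or shControl replicate 3 (0.0664). SC5D, a sterol desaturase near the end of the route, was the other enzyme beside TM7SF2 that was lower: it averaged 9.08 and 9.35 in the sh53BP1 lines, 10.02 in shControl and 9.88 in wild type (changes of -0.95 and -0.68). HMGCS1, IDI1, HSD17B7 and DHCR7 were called for no target: they encode cytosolic HMG-CoA synthase, isopentenyl diphosphate isomerase, a keto-sterol reductase and the last reductase of the route. For HMGCS1 the lines of 1 target went different ways: it was higher in shATM-3 (0.44), shATR-4 (0.55), shCHK1-4 (0.27) and shCHK2-1 (0.29) and lower in shCHK1-3 (-0.38) and sh53BP1-2 (-0.42). Its arrays spanned 10.63 to 11.65 in the kinase lines and 10.60 to 11.01 in the sh53BP1 lines, against 11.04 to 11.14 in shControl and a median of 10.96 in wild type.

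Fatty acid enzymes called against shControl were all lower: 3 of 7 for ATM (45.2% of all genes were called in either direction), 4 for ATR (47.7%), 5 for CHEK1 (51.1%), 4 for CHEK2 (48.1%) and 3 for TP53BP1 (49.1%). With 7 genes, the numbers called are near these shares in either direction. Of the 7, 42.9%, 57.1%, 71.4%, 57.1% and 42.9% were called lower for these targets, in the same order. Of all genes 22.9%, 24.3%, 25.9%, 25.1% and 25% were called lower. FASN, fatty acid synthase, lay between 10.92 and 12.01 on the kinase arrays (median 11.43). It was 12.15, 12.36 and 12.51 in sh53BP1-1 and 12.01, 11.97 and 12.10 in sh53BP1-2, against 12.34, 12.45 and 12.32 in shControl and 12.44, 12.19 and 12.29 in wild type. All 24 kinase arrays lay below every control array. The change was between -1.26 in shCHK1-3 and -0.48 in shATM-3 (SE 0.114, highest adjusted p 0.000649, limma). In sh53BP1-1 it was -0.03 (adjusted p = 0.832) and in sh53BP1-2 -0.35 (adjusted p = 0.0106), so FASN was not called for TP53BP1.

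AACS, acetoacetyl-CoA synthetase, which returns ketone bodies to lipid synthesis, changed by between -0.82 and -0.39 in the kinase lines. Its 24 kinase arrays (6.94 to 7.74) lay below every shControl array (median 8.01), but 15 of them also lay below wild type (7.46 to 7.74), which was itself lower than shControl. Its ATR call was lost without shATR-4 replicate 3 (adjusted p = 0.074, limma) or shControl replicate 3 (0.0627). SCD, the desaturase that makes monounsaturated fatty acids, was called lower for TP53BP1, and its mean was lowest in sh53BP1-2. The kinase arrays lay between 12.25 and 13.22. SCD was 12.33, 12.61 and 12.50 in sh53BP1-1 and 12.02, 11.96 and 12.18 in sh53BP1-2, against 13.31, 13.19 and 13.08 in shControl and 13.07, 13.10 and 13.08 in wild type. Changes were -0.71 (adjusted p = 5.69e-06, limma) and -1.14 (adjusted p = 1.73e-09) in these lines and between -0.73 and -0.09 in the kinase lines, where SCD was called for ATR, CHEK1 and CHEK2 (SE 0.117). ACACA, acetyl-CoA carboxylase, was called lower for CHEK1 (-0.70 and -0.60), CHEK2 (-0.51 and -0.51) and TP53BP1 (-0.46 and -0.55, but adjusted p = 0.0601 without shControl replicate 2). FADS1, a front-end desaturase, was called lower for ATM, ATR and TP53BP1. It lay between 8.49 and 9.59 on the kinase arrays and between 8.52 and 8.87 on the sh53BP1 arrays, against 9.30 to 9.43 in shControl and 9.06 to 9.23 in wild type, so only the sh53BP1 arrays lay wholly below both controls. The ATM call of FADS1 was lost on leaving out shATM-3 replicate 1 or 2 or shControl replicate 2 or 3 (adjusted p between 0.0661 and 0.0962, limma). ELOVL6, a long-chain elongase, was called lower for CHEK1 (-0.21 and -0.32), which was lost without shCHK1-3 replicate 2 (adjusted p = 0.224) or shControl replicate 1 or 2 (0.0839 and 0.119). ACLY, which makes cytosolic acetyl-CoA from citrate, was called for no target: it was higher in shATM-3 (0.40) and shATR-4 (0.30) and between -0.05 and 0.16 in the other lines.

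**Figure D3:**
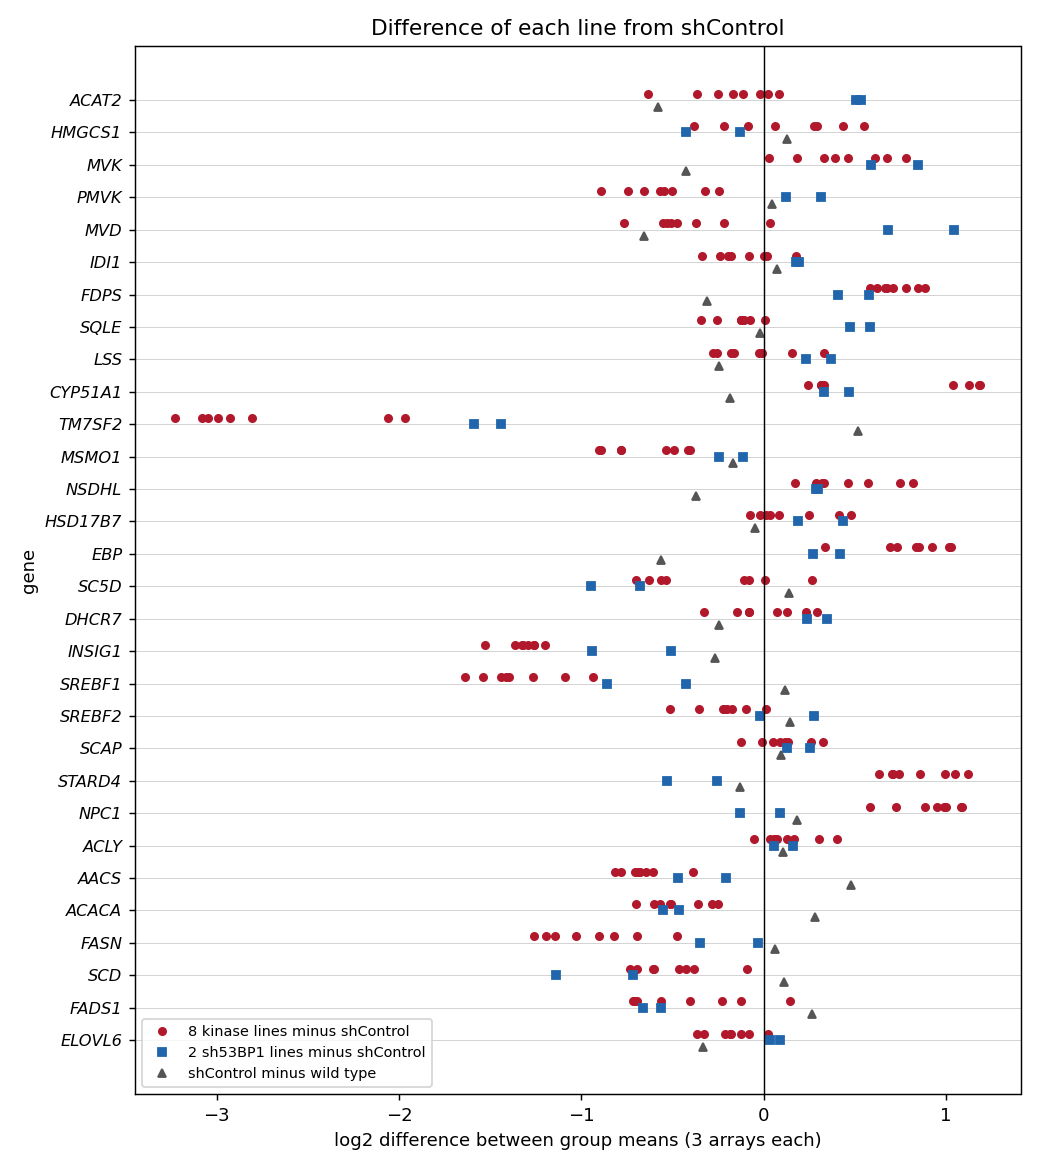
Log2 difference from shControl for each member in the 8 kinase lines (red dots) and the 2 sh53BP1 lines (blue squares), and shControl minus wild type (grey triangles). INSIG1, SREBF1 and TM7SF2 lie below 0 in all 10 lines, and MVD lies above 0 in the sh53BP1 lines and near or below 0 in the kinase lines.

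Set directly against the sh53BP1 lines, the kinase lines differed in 26 of 30 members, 10 higher and 16 lower, where 75.4% of all genes differed (38.2% higher and 37.2% lower). The median difference of the members was -0.26, that of all genes 0.00304. MVD was lower in the kinase lines, whose arrays lay wholly below the sh53BP1 arrays (-1.29 ± 0.0631, SE, adjusted p = 1.25e-17, limma). NPC1 was 0.93 ± 0.0727 higher in the kinase lines (adjusted p = 1.06e-12). ACAT2 (-0.70), PMVK (-0.78) and SQLE (-0.67) were lower in the kinase lines, also with no overlap of arrays. How many of all genes had no overlap of arrays was not counted. TM7SF2 (-1.25, or -0.53 with the deposited values), FASN (-0.75), SREBF1 (-0.70) and INSIG1 (-0.59) were lower, with arrays that overlapped. SC5D (0.52), EBP (0.46), SCD (0.43) and HMGCS1 (0.39) were higher. HSD17B7, SCAP, ACLY and ACACA did not pass, with differences between -0.16 and 0.03. The mesenchymal marker VIM averaged between 11.77 and 13.14 in the kinase lines and 8.22 and 8.06 in the sh53BP1 lines, with 11.94 in shControl and 9.65 in wild type. The summed log2 signal of the 5 mesenchymal markers lay between 30.1 and 32.0 in the kinase lines, between 26.4 and 27.2 in the sh53BP1 lines, between 30.9 and 31.1 in shControl and between 27.5 and 28.8 in wild type. COL1A1, COL1A2, COL3A1 and PDGFRB were above background on at most 1 array of a group and averaged between 4.34 and 5.29 in every group. The sums thus differ mainly through VIM. The part of this difference in the contrast was not tested.

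Hairpins of 1 target differed from each other in some members. Among the kinase targets, 53.3% of members differed for ATM, 56.7% for ATR, 30% for CHK1 and 23.3% for CHK2. Of all genes 43.6%, 41%, 32.4% and 45.4% differed, in the same order. shATM-1 and shATM-3 differed in 16 of 30 members, 1 higher and 15 lower in shATM-1, where 43.6% of all genes differed (19.2% higher and 24.4% lower). shATR-3 and shATR-4 differed in 17, 3 higher and 14 lower in shATR-3, where 41% of all genes did (16.8% and 24.1%). shCHK1-3 and shCHK1-4 differed in 9, 6 higher and 3 lower in shCHK1-3 (32.4% of all genes, 12.1% and 20.3%). shCHK2-1 and shCHK2-2 differed in 7, 5 higher and 2 lower in shCHK2-1 (45.4% of all genes, 26.2% and 19.2%). The sh53BP1 lines differed in 4 members, MVD, INSIG1, SREBF1 and SCD, all higher in sh53BP1-1 (7.4% of all genes, 2.36% higher and 5.03% lower). Of these, MVD lost its call on leaving out 25 of the 36 arrays in turn, and none of the 4 was called without sh53BP1-1 replicate 2, where 8 members had an unadjusted p under 0.05. In the ATM and ATR pairs the median difference of the members was -0.27 in both, and that of all genes -0.03 and -0.04. In the CHK1 and CHK2 pairs the median of the members was 0.09 and -0.07, and that of all genes -0.05 and 0.04. CYP51A1 differed within all 4 kinase pairs: 0.72 for shATM-1 minus shATM-3, 0.85 for shATR-3 minus shATR-4, 0.87 for shCHK1-3 minus shCHK1-4 and -0.88 for shCHK2-1 minus shCHK2-2 (highest adjusted p 2.33e-06, limma). SC5D ran the other way in the same order, with differences of -0.57, -0.97, -0.43 and 0.55, as did FADS1 with -0.48, -0.31, -0.57 and 0.71. Without shCHK1-3 replicate 2 the SC5D difference of the CHK1 pair was -0.20 and lost its call (adjusted p = 0.111, limma). MSMO1 was also called in all 4 kinase pairs but did not follow this split, with differences of -0.50, -0.47, 0.29 and 0.25. Its CHK1 call was lost on leaving out 4 of the 36 arrays in turn, and its CHK2 call on 26. By a further MSMO1 probe the means ran the other way in the ATR and CHK1 pairs. That probe averaged 6.89 ± 0.276 (SD) in shATR-3 and 6.74 ± 0.226 in shATR-4, and 6.56 ± 0.216 in shCHK1-3 and 6.93 ± 0.158 in shCHK1-4. Another MSMO1 probe had the signs of the probe used in these pairs. DHCR7 was lower in shATR-3 than in shATR-4 (-0.37) but higher in shCHK1-3 than in shCHK1-4 (0.62). HMGCS1 differed by -0.65, -0.63 and -0.65 in the first 3 pairs and by 0.23 in the CHK2 pair (adjusted p = 0.065). TM7SF2 was lower in shATM-1, where 2 of 3 arrays were above background, than in shATM-3 (-1.12, or -0.42 with the deposited values), and lower in shATR-3, with 1 of 3 arrays above background, than in shATR-4 (-1.17, or -0.42).

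The lines with high CYP51A1 and low SC5D and FADS1 were shATM-1, shATR-3, shCHK1-3 and shCHK2-2, so the split cut across the targets. The basal keratin KRT14 split the same lines: it averaged 8.85, 9.19, 9.32 and 8.63 in these, and 11.52, 12.36, 11.06 and 11.64 in shATM-3, shATR-4, shCHK1-4 and shCHK2-1. In the sh53BP1 lines KRT14 averaged 10.96 and 10.26, against 6.58 in shControl and 8.47 in wild type. The luminal keratin KRT8 split the lines the same way. It averaged 9.55, 9.49, 9.94 and 9.61 in shATM-1, shATR-3, shCHK1-3 and shCHK2-2. In shATM-3, shATR-4, shCHK1-4 and shCHK2-1 it averaged 10.87, 11.49, 10.72 and 10.95. The luminal keratin KRT18 ran the other way, between 7.93 and 8.17 in the former lines and 7.64 and 7.89 in the latter. The summed log2 signal of the 3 basal markers with a probe, all above background on every array, lay between 30.5 and 36.6 in the kinase lines, between 33.6 and 34.2 in the sh53BP1 lines, between 27.5 and 27.9 in shControl and between 31.3 and 31.6 in wild type. The part of keratin levels in these differences was not tested.

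**Figure D4:**
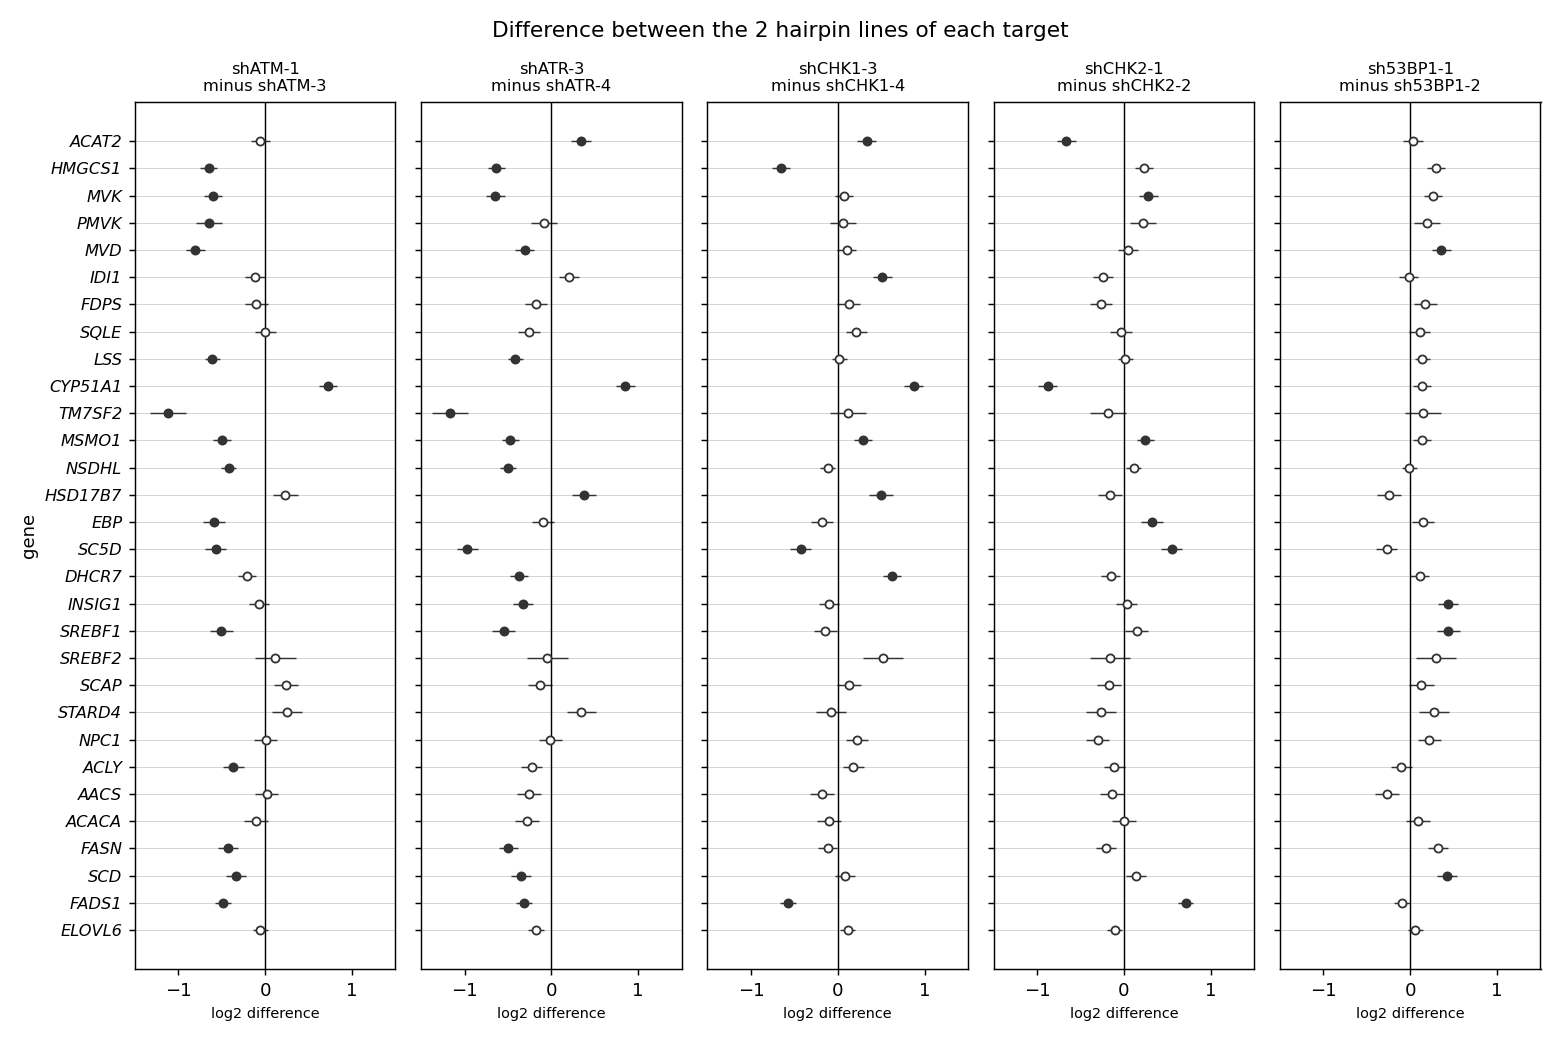
Log2 difference between the 2 hairpin lines of each target for the members (points, with bars of 1 SE), with filled symbols where the adjusted p was under 0.05. CYP51A1, SC5D and FADS1 take one sign in the ATM, ATR and CHK1 pairs and the opposite sign in the CHK2 pair.

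The control hairpin itself differed from wild type in 9 of 30 members, 2 higher and 7 lower in shControl, where 30.5% of all genes differed (14.5% higher and 16% lower). AACS (0.48) and FADS1 (0.27) were higher in shControl, the FADS1 call being lost without shControl replicate 2 or 3 or wild type replicate 1 or 3 (adjusted p between 0.0775 and 0.1, limma). ACAT2 (-0.58), MVK (-0.43), MVD (-0.66), LSS (-0.25), NSDHL (-0.37), EBP (-0.56) and ELOVL6 (-0.34) were lower in shControl (highest adjusted p 0.0296, limma). The LSS call was lost without any 1 shControl array or without wild type replicate 1 or 3 (adjusted p between 0.0509 and 0.103). Of the 7, 6 are sterol enzymes, which make up 17 of the 30 measured members. Lower calls thus held for 35.3% of the sterol enzymes, where 16% of all genes were lower. With wild type as the control, 41.6% of all genes were called for ATM, 43.5% for ATR, 47.6% for CHEK1, 45.1% for CHEK2 and 39.1% for TP53BP1. The members called were 11, 12, 15, 13 and 8 of 30, in the same order. Of the member calls against shControl, 8 of the 13 for ATM, 9 of the 15 for ATR and 13 of the 18 for CHEK1 were kept with the same sign. For CHEK2 10 of the 15 were kept, and for TP53BP1 6 of the 15. How many calls of all genes were kept in this way was not counted. TM7SF2, MSMO1, INSIG1, SREBF1, STARD4, NPC1 and FASN were kept for all 4 kinase targets by the probes used. A further MSMO1 probe averaged between 6.48 and 7.03 in the kinase lines, on either side of its wild type mean (6.88 ± 0.232, SD). Another MSMO1 probe averaged below wild type in every kinase line. CYP51A1 and AACS were kept for no kinase target, and ACAT2 became lower for all 4. For TP53BP1, SQLE, TM7SF2, SC5D, INSIG1, SCD and FADS1 were kept, and ACAT2, MVK, MVD, FDPS, LSS, CYP51A1, NSDHL, SREBF1 and ACACA were not. Against wild type, INSIG1 was between -1.80 and -1.47 in the kinase lines, and -0.78 and -1.21 in the sh53BP1 lines.

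Some members have further probes above background. Over 187 pairs of a further probe and a comparison, both probes were called with the same sign in 68, 1 of them in 51, neither in 66, and both with opposite signs in 2. The 2 are LSS in shATR-3 against shControl (0.58 by the further probe and -0.26 by the probe used) and MSMO1 in sh53BP1-2 against shControl (0.44 and -0.25). Neither is part of a target call above. The CHEK1 call of ELOVL6 was not borne out by its further probe, which averaged 9.13 and 8.92 in these lines and 9.05 in shControl. The further ACAT2 probe averaged between 5.44 and 6.65 in the kinase lines, against 5.73 in shControl and 6.76 ± 0.505 in wild type. Its level in shATM-1 (6.65) and shCHK2-2 (6.65) was thus within the spread of wild type.

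Neighbouring lipid genes, from lists made by function, were counted in the same fit. Of 15 measured genes of fatty acid oxidation, 13 were called for all 4 kinase targets (36% of all genes): CPT1A, which admits long-chain fatty acids to mitochondria, was higher (0.45 to 0.97), and 12 were lower, among them ETFDH (-2.02 to -1.83), DECR1 (-2.03 to -1.45) and ETFB (-2.41 to -1.27), which pass on electrons from oxidation or handle unsaturated chains. For TP53BP1, 1 was higher and 10 were lower, where 24% of all genes were higher and 25% lower. The median change of the 15 genes was between -0.81 (CHEK1) and -0.49 (TP53BP1) over the 5 targets, where the medians of all genes lay between -0.000511 and 0.04. Of 9 measured genes of sterol sensing, storage and export, 6 were called for all 4 (36% of all genes). ABCG1 (1.13 to 1.82), LIPA (0.75 to 1.36) and SOAT1 (0.75 to 1.30), which export sterols, free them in lysosomes and esterify them, were higher. NR1H3, an oxysterol receptor (-2.72 to -1.67), MYLIP, a ubiquitin ligase (-2.52 to -1.37), and PLTP, a lipid transfer protein above background on 0 of 24 kinase arrays and 3 of 3 shControl arrays, were lower. The median of the 9 was between -0.43 (TP53BP1) and 0.05 (CHEK2). Of 15 measured genes linked to SREBP action or sterol supply, 6 were called for all 4, which is near the 36% of all genes. PCYT2, an enzyme of phosphatidylethanolamine synthesis, was higher (1.12 to 1.80 against shControl, but -0.08 to 0.61 against wild type). MBTPS1, a protease that cuts SREBPs free (-1.30 to -0.68), ME1, malic enzyme (-0.86 to -0.49 against shControl, but -0.24 to 0.13 against wild type), MBTPS2, SLC25A1 and GGPS1 were lower, and the median of the 15 was between -0.44 (CHEK2) and -0.20 (TP53BP1). Of 12 measured genes of fatty acid activation and elongation, 3 were called for all 4, a share below the 36% of all genes. FADS3 was higher (0.34 to 1.11), and ACSL1, a long-chain acyl-CoA synthetase (-3.42 to -2.56), was lower, as was ACSL5, which was above background on 1 of 24 kinase arrays and 3 of 3 shControl arrays. The median of the 12 was between -0.35 (TP53BP1) and 0.00226 (ATR).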

How the data were processed

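Total RNA of 12 groups of cells was hybridised to 36 Illumina BeadChip arrays (3 labelled biological replicates a group). The deposited signal table gives intensity per probe, neither normalized nor background corrected per its values, and per the file headers a detection p-value beside each signal. A table of log2 values was also deposited. It equals quantile normalized log2 signals to within 0.0139, and no source used here states how the authors made it. Arrays were matched to labels (36 of 36 matched their own deposited column). Mean signal lay between 460 and 677 intensity units, background between 93.5 and 126.6, and 33.5% to 38.3% of probes were above background. The number of arrays limits the precision.

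The neqc function of limma 3.58.1 in R 4.3.3 corrected the background, quantile normalized the arrays and took log2 values, with an offset of 16 and negative controls derived from detection p-values. Probes detected at p under 0.01 on all 3 arrays of a group and listed with 1 gene in the platform annotation were kept, and each gene was represented by its brightest probe on average, which left 11048 genes. Levels of different probes are not comparable. A linear model of 12 group means over 36 arrays (lmFit, eBayes) was adjusted by Benjamini-Hochberg within each contrast, with a threshold of 0.05. The fit was tested on simulated data. Where no array of a group was above background only a bound is given, against the lowest signal among probes above background on each array. Replicate numbers give no pairing: between arrays of different groups the residuals correlated by -0.000629 on average where numbers matched (lowest -0.246) and by 0.000385 where they did not. Members were matched by symbol. Promoter windows are RefSeq's on GRCh38.p14, searched with Python 3.11.15.

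Members, lists, tests and named genes were chosen with earlier results of these data known. Values per array are given for the 12 members with the widest ranges. From each further list the 3 genes with the largest smaller change were named. ABCG1, LIPA, SOAT1, MBTPS2, SLC25A1, GGPS1 and CPT1A fall outside that rule and were picked with their values in view, as were the members outside the 12 whose array ranges are given. The comparisons ask how the pathway differs between each target's lines and shControl, between kinase and sh53BP1 lines, between hairpins and between controls. Alternatives were the deposited values, cyclic loess, no background correction, no filter, the replicate number as a block, wild type as the control, the mean of all probes, only the compared groups fitted, and each array left out. A slide block was not run, since no source used here names the slides.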

Additional observations from a re-analysis of the deposited data

Results flagged for a closer look

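Some comparisons differed between groups that share the shControl arrays. Against shControl, the change differed between the 8 kinase lines and the 2 sh53BP1 lines in 26 of 30 members, by a direct contrast in limma in which 75.4% of all genes differed. MVD was lower in the CHEK1 and CHEK2 lines and higher in the sh53BP1 lines, with a direct difference of -1.29 between the kinase and sh53BP1 lines. Changes also differed between the hairpins of 1 target: in 16 members for shATM-1 against shATM-3, 17 for shATR-3 against shATR-4, 9 for shCHK1-3 against shCHK1-4, 7 for shCHK2-1 against shCHK2-2 and 4 for sh53BP1-1 against sh53BP1-2. Of all genes 43.6%, 41%, 32.4%, 45.4% and 7.4% differed in these contrasts, in the same order. Causes were not tested.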

How the results depend on the processing

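Of 164 member changes called, 163 kept their sign and call with the deposited log2 values, 163 with no background correction, 156 with cyclic loess, 155 with no filter on dim probes, 159 with the mean of all probes and 146 when only the compared groups were fitted. The changes were smaller by over 1.5 times in 28 of 164 with the deposited values (median ratio 0.914), among them all STARD4, TM7SF2 and MVK changes. With the replicate number as a block 160 were kept, and the sh53BP1 hairpins differed in 2 members in place of 4. It changed no other count of members called by over 1.5 times. Between the sh53BP1 hairpins the count was also 2 with no filter and 0 when only the compared groups were fitted, where 7 members had an unadjusted p under 0.05 in limma, against 8 in the fit of all arrays. With only the compared groups fitted, the shCHK1 hairpins differed in 5 members in place of 9, and with no filter the shCHK2 hairpins in 4 in place of 7. With wild type in place of shControl, 8 members were called for TP53BP1 in place of 15, and of 76 changes 46 were kept, 27 lost their call and 3 changed sign: MVK for CHEK1 (-0.000193), ACAT2 for TP53BP1 (-0.0602) and NSDHL for TP53BP1 (-0.0776). Cyclic loess moved the split to 4 higher and 11 lower for CHEK2 (6 and 9 above) and to 3 and 6 for shControl against wild type (2 and 7 above). The causes were not tested.

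Leaving out each array in turn, the count called was 11 to 13 for ATM, 14 to 16 for ATR, 16 to 18 for CHEK1, 14 to 16 for CHEK2, 13 to 17 for TP53BP1, 7 to 10 for shControl against wild type and 25 to 27 for the kinase against the sh53BP1 lines. For hairpins of 1 target it was 14 to 16 for ATM, 13 to 17 for ATR, 7 to 10 for CHK1, 4 to 9 for CHK2 and 0 to 5 for 53BP1. The count was 4 without shCHK2-2 replicate 2, and for the sh53BP1 hairpins 0 without sh53BP1-1 replicate 2 (8 members at an unadjusted p under 0.05) and 1 without sh53BP1-1 replicate 3 or without sh53BP1-2 replicate 1 or 2. STARD4, SREBF2 and TM7SF2 lie near background in some groups, which limits their changes.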
